A study of Homo sapiens with 4 samples.

Results

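The epidermal growth factor (EGF) receptor family and its ligands were examined in OVCAR-3 cells, a long-established line from a human ovarian cancer, on arrays that measure transcripts across the genome. The listed genes were the 4 ERBB receptors (EGFR, ERBB2, ERBB3 and ERBB4) and 6 ligands (NRG1, AREG, EREG, HBEGF, TGFA and BTC). A gene was followed through the array features, called transcript clusters, that the platform annotation assigns to its symbol alone. Such a cluster was found for 9 of the 10 genes, among 18417 genes in all, and AREG was not analysed here. The family was chosen by membership, but with the difference between the groups already known and ERBB4 among the large ones. The members' differences between the groups are therefore given as a description, without a p-value. The number of members passing a test is given only beside the share of all genes. Nothing is concluded from the differences or from that number.

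The series asked which transcripts change when the linker histone H1.3 is overexpressed. There were 2 arrays of cells transfected with a vector lacking H1.3 ("vector only") and 2 of cells labelled as overexpressing human H1.3, all OVCAR-3 grown in the same serum-containing medium. The replicates are labelled biological, and the labels do not say whether they were separate transfections, clones or cultures. Any spread between these arrays may therefore be technical. Each SE below is from limma, which draws the variance of a gene toward that of all genes. For a gene with a wide replicate spread it is smaller than its own arrays would give. For ERBB4 the SE was 0.30, where the pooled SD of its replicates was 0.52. The gene for H1.3, H1-3, had a log2 level of 8.65 and 7.88 with vector only, against 7.47 and 7.69 with the H1.3 label. It was thus lower, not higher, in the latter, without passing limma's test (difference -0.69 ± 0.24 SE, adjusted p 0.319), and each direction below is that of the arrays labelled H1.3. The sources used here do not say whether this cluster detects RNA made from the vector.

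The 4 arrays were alike in depth of signal, with medians of 6.21 to 6.27 over all clusters, and their small number limits the precision. Markers of the labelled cell type were present, as all 12 epithelial and ovarian carcinoma genes examined lay at or above the median level of the named clusters, 6.84. The mean level of those 12 markers was between 10.7 and 11.0 on each array. Of the markers of other cell types, 1 of 9 for leukocytes (NKG7, just at it), 1 of 8 for fibroblasts (COL1A1) and 0 of 8 for endothelial cells reached that median. Their mean levels per array were 4.90 to 5.11, 5.11 to 5.29 and 5.45 to 5.53, and 0 of these 4 marker lists held a gene that passed limma at an adjusted p under 0.05. The unadjusted limma p was under 0.05 for 2 markers, both of the carcinoma list and both with a negative difference. Among all genes the share with such a p was 11.8%, in both directions. The 12 carcinoma markers differed by -0.565 to 0.32, with a median of -0.075. Their groups did not overlap for 4 lower and 2 higher markers (19.3% and 21.6% of all genes). Differences of RNA per cell and of the number of expressing cells cannot be told apart in such bulk samples.

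ERBB receptors are transmembrane tyrosine kinases that pair on binding a ligand and phosphorylate each other's tails, which recruit adaptors of the RAS-MAPK and PI3K-AKT cascades. ERBB2 has no known ligand of its own and ERBB3 has a weak kinase, so each signals mainly in pairs with another receptor. The ligands are made as membrane-anchored precursors and released by proteases of the ADAM family; EGFR binds TGFA, AREG, EREG, HBEGF and BTC, whereas NRG1 binds ERBB3 and ERBB4, and ERBB4 also takes BTC, HBEGF and EREG. In epithelial tissues the system drives proliferation, survival and differentiation, and EGFR and ERBB2 are targets of cancer drugs.

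For the 3 receptors whose groups of arrays did not overlap, the promoter at an annotated transcript start is shown. Which starts these cells use was not measured here. Each sequence is the 300 bases around that annotated start, read 5′ to 3′ on the gene's strand from RefSeq (GRCh38.p14). Capitals mark matches on either strand to the TATA box, searched as TATAAA, to the CCAAT box, searched by these letters, and to the GC box, searched as GGGCGG. Neighbouring matches may overlap. The regions are chr2:212538753-212539052 (minus strand) for ERBB4, chr7:55018767-55019066 (plus strand) for EGFR and chr17:39687844-39688143 (plus strand) for ERBB2.
ERBB4: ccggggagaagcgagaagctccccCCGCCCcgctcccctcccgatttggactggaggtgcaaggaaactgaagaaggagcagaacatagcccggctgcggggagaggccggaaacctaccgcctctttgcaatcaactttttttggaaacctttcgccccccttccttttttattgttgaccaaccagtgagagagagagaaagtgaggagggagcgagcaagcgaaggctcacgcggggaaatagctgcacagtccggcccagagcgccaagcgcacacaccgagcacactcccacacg
EGFR: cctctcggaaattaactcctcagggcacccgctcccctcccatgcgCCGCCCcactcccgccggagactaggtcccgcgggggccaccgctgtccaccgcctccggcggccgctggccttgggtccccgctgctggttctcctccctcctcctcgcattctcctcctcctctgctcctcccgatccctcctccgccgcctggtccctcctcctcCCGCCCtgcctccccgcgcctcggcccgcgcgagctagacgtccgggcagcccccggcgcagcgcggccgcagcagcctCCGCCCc
ERBB2: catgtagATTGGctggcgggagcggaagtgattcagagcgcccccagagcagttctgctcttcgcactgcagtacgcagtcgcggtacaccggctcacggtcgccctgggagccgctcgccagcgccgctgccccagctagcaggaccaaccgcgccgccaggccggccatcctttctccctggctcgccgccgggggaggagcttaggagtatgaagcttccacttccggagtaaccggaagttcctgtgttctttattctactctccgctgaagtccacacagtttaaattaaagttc

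The 3 promoters differed in composition. That of ERBB4 was 59.0% G or C with 19 CpG dinucleotides, close to the median of all 35116 listed promoters (58.7% and 14). That of EGFR was 75.3% G or C with 33 CpG, and that of ERBB2 60.7% with 24. The ERBB4 sequence held 1 GC box, the EGFR sequence 3 and the ERBB2 sequence none, but 1 CCAAT box. None of the 3 held a TATA box, which 11.5% of all promoters do, while 34.6% hold a CCAAT box and 45.0% a GC box. Of the ligands, EREG and AREG each have a TATA box in the first listed promoter and HBEGF, TGFA and BTC have none. A further listed start of EGFR, at chr7:55109589-55109888 (plus strand), is 42.0% G or C with 1 CpG and holds 2 TATA boxes. A match is only a run of letters, and no match says nothing about a factor. The table held promoters of 8 of the 10 genes, and those of ERBB3 and NRG1 are not shown.

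ERBB4, the neuregulin receptor with an active kinase, had by far the widest gap of the 9 members measured. It measured 8.55 and 9.31 with vector only, against 6.58 and 7.28 with the H1.3 label. Both arrays labelled H1.3 lay below both vector-only arrays, and differences between single arrays of the groups ran from -2.73 to -1.27. Group means were 8.93 ± 0.54 and 6.93 ± 0.50 (SD, n = 2 per group), which differ by -2.00 ± 0.30 (SE), a level 4.0-fold lower. The size of that difference stood at the 99.9th percentile of all genes. The mean in the arrays labelled H1.3 was still just above the median of the named clusters.

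EGFR, the receptor of most EGF-family ligands, measured 8.23 and 8.80 with vector only, against 7.75 and 8.18 with the H1.3 label. The groups did not overlap, but only just, since differences between single arrays of the groups ran from -1.05 to -0.05. The difference was -0.55 ± 0.22 (SE), and it moved between -0.84 and -0.27 when each array was left out in turn, so single arrays set much of its size. ERBB2, the ligandless partner receptor, measured 8.56 and 8.38 against 8.17 and 8.15. Its arrays were tighter, with SDs of 0.13 and 0.014, and the difference was -0.31 ± 0.12 (SE), with differences between single arrays of the groups from -0.41 to -0.21. ERBB3, the other neuregulin receptor, measured 8.89 and 9.05 against 8.66 and 8.94. Its groups overlapped, and the difference of -0.17 ± 0.14 (SE) was close to its error.

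All 4 receptor differences were thus negative, with a median of -0.43, where 45.5% of all genes had a negative difference and their median was 0.02. The groups did not overlap, with the arrays labelled H1.3 lower, for 3 of the 4 receptors, and for 19.3% of all genes. At an adjusted p under 0.05 in limma, 1 receptor (ERBB4) was called lower, as were 0.277% of all genes, and 0 of the 9 members were called higher, as were 0.217% of all genes. Because the family was chosen with this contrast known and ERBB4 among the large differences, the ERBB4 call is not a test of it. Nothing is read from that call or from these counts. The ERBB4 call was also lost in 9 of 10 alternative fits. With a replicate block 0 clusters were called higher and 0 lower, so no gene could keep a call there. The 9 include the fits that left out an array, which leave 1 array in a group. For those only the ERBB4 difference is given, which ranged from -2.38 to -1.62.

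**Figure D1:**
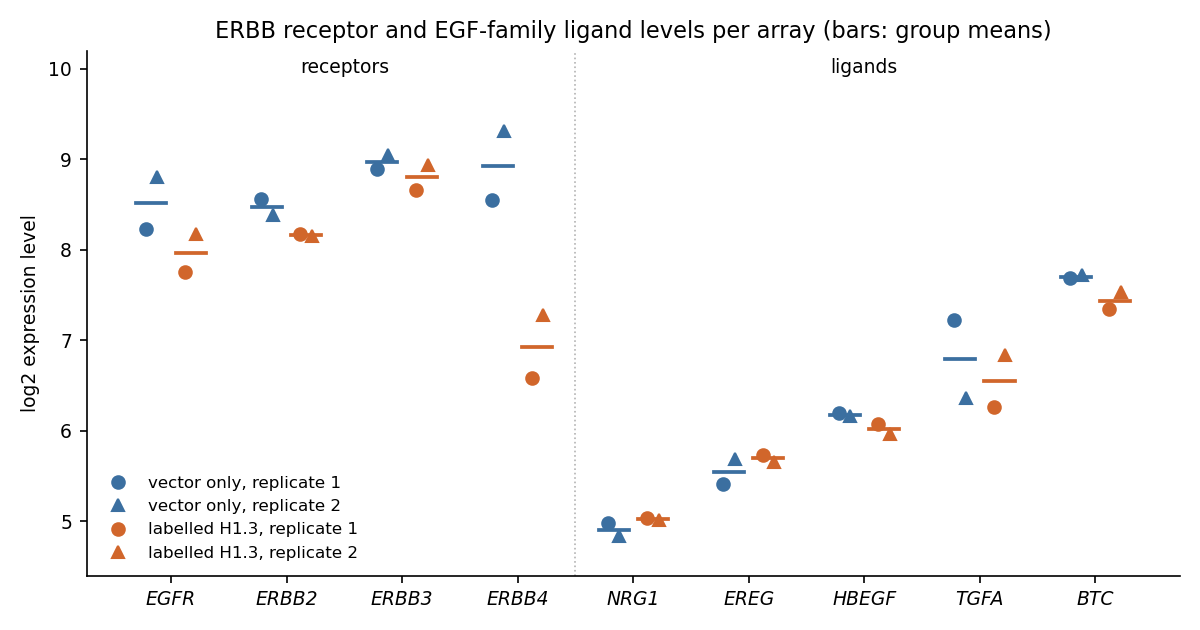
The vertical axis is the log2 level and each point an array (circles replicate 1, triangles replicate 2; blue vector only, orange labelled H1.3; bars are group means, n = 2). The 2 orange ERBB4 points, 6.58 and 7.28, lie below the blue ones, 8.55 and 9.31, and of the ligands TGFA has the widest spread, from 6.26 to 7.23; heights are not comparable between genes, since each is read by other probes.

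The ligands differed less between the groups than ERBB4 did. BTC, a ligand of both EGFR and ERBB4, measured 7.69 and 7.72 with vector only, against 7.35 and 7.53 with the H1.3 label, which differ by -0.27 ± 0.12 (SE). HBEGF, the heparin-binding ligand that is also the receptor for diphtheria toxin, measured 6.20 and 6.16 against 6.08 and 5.96, a difference of -0.16 ± 0.12 (SE). In both genes the arrays labelled H1.3 were the lower ones without overlap, and the closest single arrays differed by -0.16 and -0.08.

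TGFA, the classical EGFR ligand of epithelial cells, measured 7.23 and 6.36 against 6.26 and 6.84. Its replicates were farther apart than its groups: the vector-only arrays differed by 0.87 and those labelled H1.3 by 0.58, against a group difference of -0.25 ± 0.30 (SE). The sign turned when vector-only replicate 1 (0.19) or H1.3 replicate 1 (0.05) was left out, so no direction can be given for TGFA.

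EREG, epiregulin, measured 5.41 and 5.69 against 5.73 and 5.66, with overlap, a difference of 0.15 ± 0.14 (SE). NRG1, the neuregulin ligand of ERBB3 and ERBB4, was read by 2 clusters, which measured 4.98 and 4.84 against 5.04 and 5.01, and 4.91 and 4.78 against 4.91 and 5.11. The first had groups that did not overlap, with the arrays labelled H1.3 higher by 0.03 at the closest; its difference was 0.12 ± 0.12 (SE), and that of the other 0.17 ± 0.13 (SE). The former ran from 0.05 to 0.19 when each array was left out in turn. Of the 9 members, 5 had groups apart with the arrays labelled H1.3 lower (19.3% of all genes) and 1 (NRG1) with them higher (21.6% of all genes). The NRG1 level lay near the 20.3rd percentile of the named clusters, EREG at the 29.5th and HBEGF at the 37.5th.

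**Figure D2:**
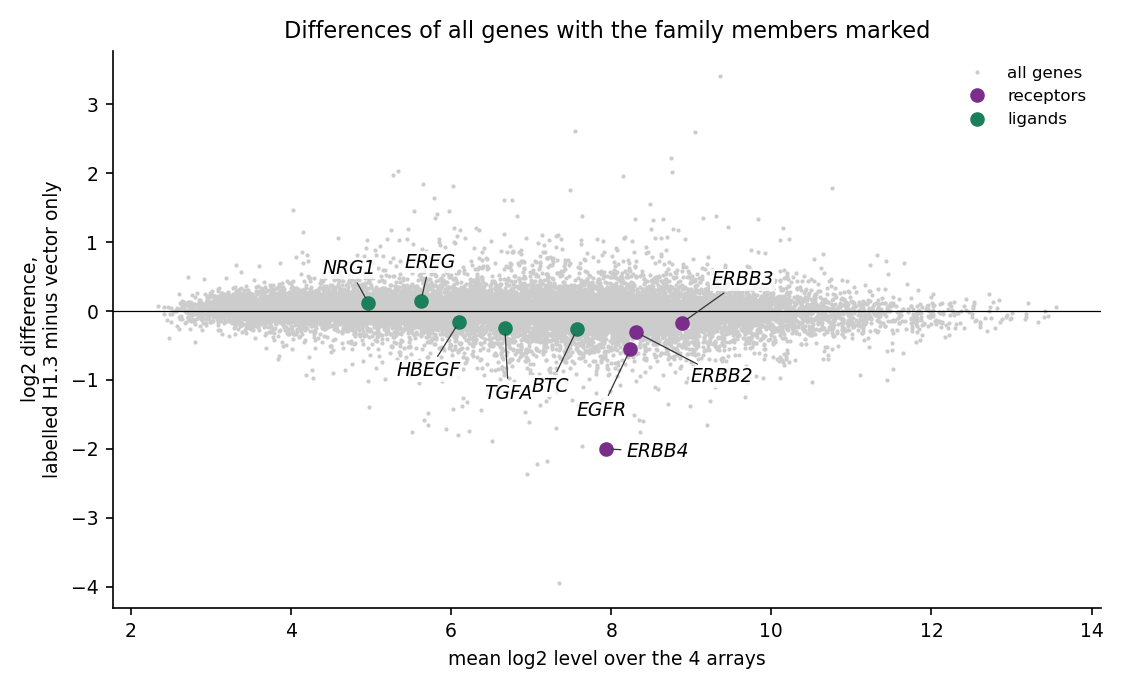
The horizontal axis is a gene's mean log2 level over the 4 arrays and the vertical axis its log2 difference, labelled H1.3 minus vector only; grey points are all 18417 genes. ERBB4 stands at -2.00, apart from the main cloud, and the other 8 members lie between -0.55 and 0.15.

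The members also differed in how well their replicates held together, a property that does not use the difference between groups. The pooled replicate SD was 0.52 for both ERBB4 and TGFA, above 99.1% of all genes, and 0.36 for EGFR, at the 96.9th percentile. It was 0.16 for ERBB3, 0.091 for both ERBB2 and BTC, and 0.063 for HBEGF, against a median of 0.12 over all genes. ERBB4 and EGFR varied alike in both groups: replicate 2 exceeded replicate 1 by 0.76 (vector only) and 0.70 (labelled H1.3) for ERBB4 and by 0.57 and 0.43 for EGFR. The labels give no batch or date to which this could be tied.

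The members lie in different surroundings, so the genes next to each were compared with it. For each member, the 15 nearest genes on each side in RefSeq order with a level at or above the median were taken, and their median difference was set among the 9303 such windows of the genome, whose 5th and 95th percentiles were -0.25 and 0.16. The 30 neighbours of ERBB4 had a median difference of 0.08, and 11 were negative. ERBB4 minus its surroundings was thus -2.08. The neighbours of ERBB2 also had a median of 0.08, and ERBB2 minus it was -0.39.

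EGFR was surrounded by genes with lower levels. Of its 30 neighbours, 24 had a negative difference and the median was -0.23, at the 5.64th percentile of all windows. GRB10, a gene for an adaptor that binds growth factor receptors, was the nearest before EGFR among genes at or above the median level. It differed by -0.70, at the low end of the neighbours' range, whose highest value was 0.095. For NRG1 all 30 neighbours were negative, with a median of -0.57 (0.645th percentile) and a range from -1.19 to -0.17, while NRG1 itself stood at 0.12. The level of NRG1, near the 20.3rd percentile of the named clusters, was below that required of its neighbours. NRG1 and its neighbours are therefore not directly comparable. The neighbours of ERBB3, HBEGF and TGFA had medians of -0.05, -0.03 and 0.01. EPGN, EREG, AREG and BTC follow one another in the gene order used, with 0 other measured genes between them, and the neighbours of EREG had a median of 0.05, with the chemokine gene CXCL1 among them at 1.05. The copy number of these regions was not measured here.

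**Figure D3:**
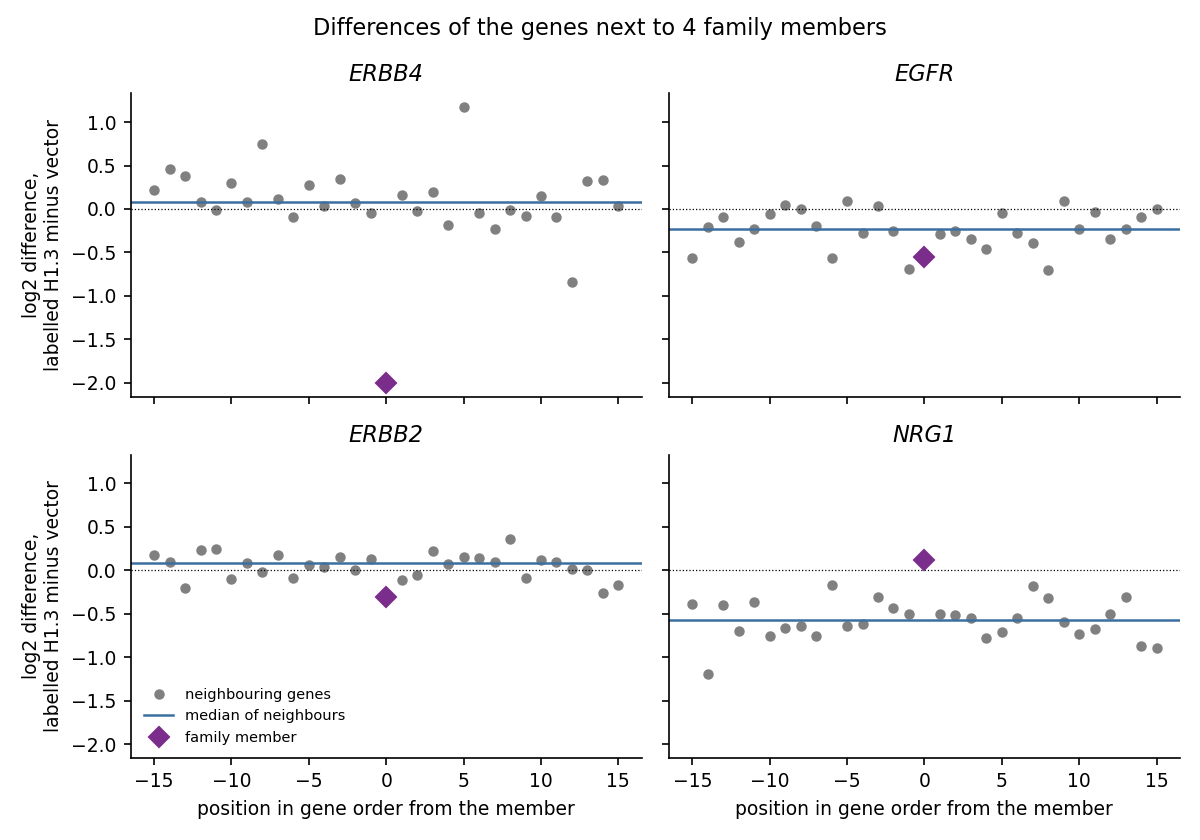
Each panel plots the log2 difference (labelled H1.3 minus vector only) of up to 15 genes on each side of a member by their position in gene order, with the member as a purple diamond at 0 and the neighbours' median as a blue line. ERBB4 lies far below a line at 0.08, EGFR nearer to a line at -0.23, and NRG1 above a line at -0.57. NRG1 has a low level, near the 20.3rd percentile of the named clusters, whereas the neighbours shown lie at or above the median.

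Genes that act with the family were taken from 8 lists chosen by function with earlier results of these data known, 149 measured of 167. In limma, 0 were called higher and 0 lower at an adjusted p under 0.05; 19 had an unadjusted p under 0.05, or 12.8% against 11.8% of all genes. With a robust intensity trend 1 was called, the growth factor receptor gene FGFR2, at -0.61 ± 0.11 (SE; adjusted p 0.0436).

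Among the other ligands, all 5 measured genes had a positive difference, from 0.03 to 0.29, and their median was 0.06. Of all genes, 45.5% had a negative difference. Only 1 of the 5 lay at or above the median level of the named clusters. EPGN (epigen) differed by 0.29 ± 0.42 and NRG3 (neuregulin 3) by 0.15 ± 0.14 (SE). Of 12 genes of ligand shedding and trafficking, 8 were negative and the median was -0.07. ADAM17, the main sheddase of EGFR ligands, measured 9.76 and 10.05 against 9.80 and 9.93, with overlap. TIMP3, an inhibitor of that sheddase, differed by -0.34 ± 0.36, ADAM9, a membrane metalloprotease, by -0.28 ± 0.16 and RHBDL2, a rhomboid protease that can cleave EGF, by 0.28 ± 0.16 (SE), the last pair tied in size.

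Downstream, 22 adaptors and proximal effectors split into 11 positive and 11 negative differences with a median of 0.02. The docking protein gene GAB2 differed by -0.58 ± 0.46, a value set by vector-only replicate 1 (9.03 against 7.40, 7.85 and 7.43 on the other arrays). EPS8, a substrate of the EGFR kinase, measured 7.83 and 7.95 against 8.33 and 8.41, which differ by 0.48 ± 0.12 (SE; adjusted limma p 0.153). The medians were 0.08 over 8 genes of the RAS-MAPK cascade and 0.09 over 14 of the PI3K-AKT cascade. RPS6KA3, a kinase activated by ERK, differed by 0.40 ± 0.11 and MAPK3, which encodes ERK1, by 0.33 ± 0.13 (SE). INPP4B, a phosphatase of PI3K products, differed by 0.28 ± 0.13, and PIK3R3, a regulatory subunit of PI3K, by 0.20 ± 0.20 (SE).

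The receptor ubiquitin ligases and feedback inhibitors were the list with the lowest median, -0.14, with 18 of 24 differences negative. The groups did not overlap for 10 lower members and 3 higher ones (19.3% and 21.6% of all genes). An unadjusted limma p under 0.05 was found for 5 of the 24, all lower, while 0 passed after adjustment. Of all genes, 11.8% had such an unadjusted p, counting both directions. LRIG1, a transmembrane protein that promotes degradation of ERBB receptors, measured 8.69 and 7.73 against 7.66 and 7.45, a difference of -0.66 ± 0.28 (SE). SPRY2, an inhibitor of receptor signalling to RAS that many growth factors induce, measured 7.44 and 6.81 against 6.42 and 6.67, a difference of -0.58 ± 0.21 (SE).

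The 19 growth factor response genes had a median of 0.03. LIF, a cytokine gene, measured 5.74 and 6.93 against 7.26 and 7.12, and ETV4, an ETS transcription factor gene, 7.05 and 6.81 against 7.62 and 7.31, differences of 0.86 ± 0.34 and 0.54 ± 0.15 (SE). EGR1, an immediate early gene, overlapped between the groups at 7.27 and 7.46 against 7.36 and 7.16. The groups did not overlap for 8 higher genes and 1 lower one, MYC (21.6% and 19.3% of all genes). An unadjusted limma p under 0.05 was found for 3 of the 19, all higher, while 0 passed after adjustment. The share of all genes with such an unadjusted p, in both directions, was 11.8%.

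**Figure D4:**
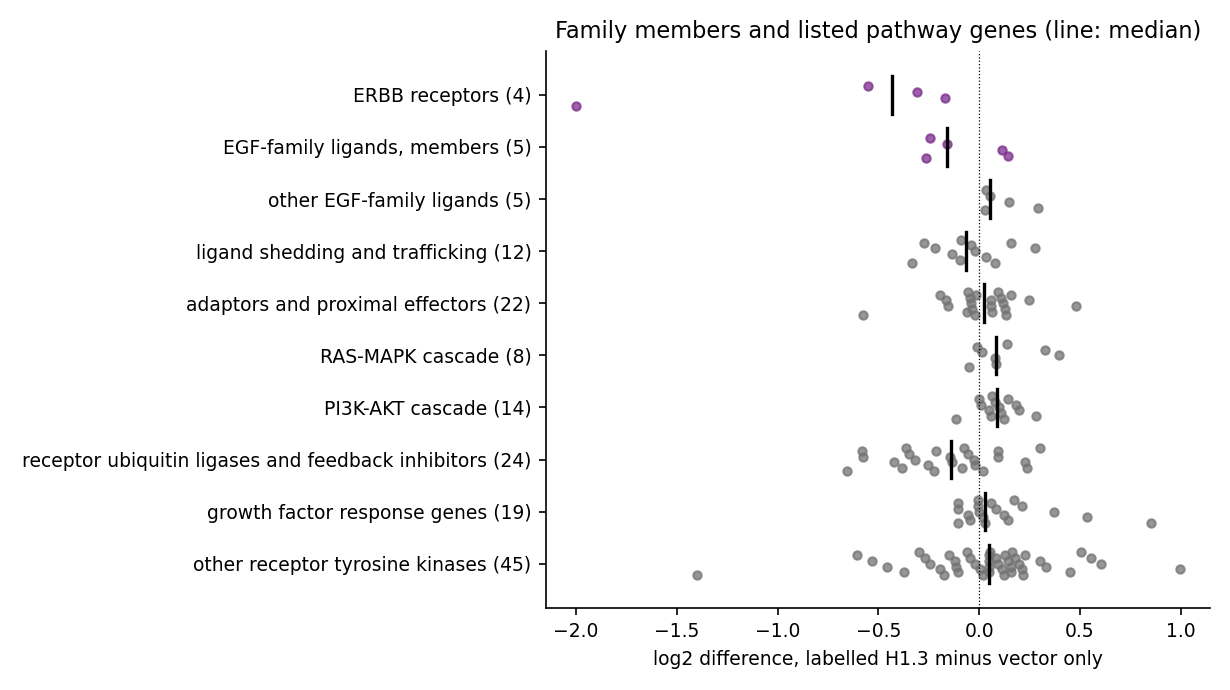
Each point is a gene, placed by its log2 difference (labelled H1.3 minus vector only), in rows for the receptors, the ligands and the 8 lists (number measured in brackets; black lines are medians). ERBB4 stands alone at -2.00, the feedback inhibitors centre on -0.14 and the other 7 lists have medians between -0.07 and 0.09.

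Set among the receptor tyrosine kinases, ERBB4 had the lowest difference of 49 measured, and counted from the lowest EGFR had rank 4, ERBB2 rank 8 and ERBB3 rank 14. The 45 kinases outside the family had a median of 0.05, with 17 negative. Only 14 of these 45 lay at or above the median level of the named clusters. The 4 ERBB receptors stood at the 68.7th to 83.3rd percentile of level, so the ranks compare genes of unlike level. KIT, the stem cell factor receptor, measured 6.29 and 5.06 against 4.75 and 3.80, a difference of -1.40 ± 0.43 (SE) with an adjusted limma p of 0.239. EPHB1, an ephrin receptor, measured 5.28 and 5.79 against 6.39 and 6.67, a difference of 1.00 ± 0.19 (SE) with an adjusted limma p of 0.0922.

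The genes whose profile over the 4 arrays was most like that of ERBB4, by Euclidean distance between log2 values centred on each gene's mean, were NOX4 (an NADPH oxidase, distance 0.448), BCAT1 (an enzyme of branched-chain amino acid metabolism, 0.540) and PRTFDC1 (a phosphoribosyltransferase relative, 0.544), where the median distance of all genes was 2.16. NOX4 measured 6.64 and 6.95 with vector only, against 4.82 and 5.36 with the H1.3 label, with the same higher replicate in both groups as ERBB4. The nearest to EGFR were CMTM7 (0.0963), MFHAS1 (0.102) and TMEM154 (0.113), where the median was 0.794. Over only 4 arrays many genes come close, and the likeness is a description of these arrays.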

How the data were processed

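Per the labels, biotin-labelled RNA of 4 OVCAR-3 samples was hybridised to one-colour Affymetrix arrays. The authors deposited log2 values for 33297 transcript clusters; the submitters' processing notes name Affymetrix Expression Console and RMA, and their versions and the genome build are not stated there. RMA equalises arrays and summarises probes, so background and single probes could not be examined. Genes were named from the platform annotation, updated to RefSeq (GRCh38.p14): 21214 clusters had a symbol and 19460 had exactly 1, standing for 18417 genes. The cluster of highest mean represents a gene. Arrays labelled H1.3 were compared with vector-only arrays by limma 3.58.1 in R 4.3.3 (lmFit, eBayes, two-sided, Benjamini-Hochberg over 21214 clusters, threshold 0.05), with 2 residual and 5.16 prior degrees of freedom; SEs are from this fit. The code of the fit was run on simulated data with large planted changes, which does not bear on the small differences of most members.

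The members, lists, tests and alternatives were chosen with earlier results of these data known. Every member is named; each pathway list is illustrated by its called genes or, with none called, the 2 of largest difference, and ADAM17, EGR1, FGFR2, MYC, GRB10, CXCL1, NKG7 and COL1A1 were added after their values were seen. For ERBB4 and EGFR, the 3 nearest profiles are named. Alternatives changed moderation, scaling, filter, clusters tested, window, replicate term and arrays. Protein sequences were not used here. Numbering of replicates was not taken to pair arrays. Figures were drawn with matplotlib 3.10.9.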

Additional observations from a re-analysis of the deposited data

How the results depend on the processing

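Over all named clusters, 51 were called higher and 56 lower in limma. A robust intensity trend gave 107 and 138, one common median for the arrays 19 and 31, leaving out clusters below the median level 6 and 19, and testing all transcript clusters 1 and 3. A replicate block on the replicate number gave 0 and 0 (2195 clusters at an unadjusted p under 0.05), and leaving out each array in turn gave 0 to 0 for both (1292 to 2367 at an unadjusted p under 0.05), where a lone array takes its spread from the other group. The cause was not tested, except that more clusters or fewer arrays were tested in the settings so named. Replicate differences of the groups correlated at 0.06 across clusters, which does not show that the replicate numbers pair the arrays. Of the pathway genes, 0 were called, and 1 with a robust intensity trend. ERBB4 was still called after a second quantile normalization and in no other alternative fit, with a difference of -2.01 to -1.99 outside the leave-one-out fits. Of 9 members, 7 had a negative difference, and 6 to 7 in the leave-one-out fits. TGFA ran from -0.68 to 0.19 there, with 0.045 without H1.3 replicate 1, ERBB3 from -0.31 to -0.03, EREG from 0.01 to 0.29, NRG1 from 0.05 to 0.19, HBEGF from -0.22 to -0.10 and BTC from -0.36 to -0.18. With 25 genes on each side the neighbour median was -0.005 for AREG, EREG and BTC, and that of TGFA was -0.0375 with 10 or 25, against 0.01 with 15.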
